A study of Mus musculus with 38 samples.

Results

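This report covers 6 genes that Notch signalling is known to switch on directly, Hes1, Hes5, Hey1, Heyl, Dtx1 and Nrarp, and the chromatin around them in mouse lymphoid progenitors before and after Notch stimulation. A peak was assigned to a gene when its centre lay in the gene body or within 50 kb of either end, on the mm10 build of the mouse genome. With that rule 301 of the 359759 peaks in 17 lists were retained, and the 6 genes were taken from 21938 protein-coding genes of GENCODE M21 on named chromosomes.

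Chromatin immunoprecipitation with sequencing (ChIP-seq) had been carried out on Cas9-LP cells. These are lymphoid progenitor (LP) lines grown out of fetal liver from mice that lack Ebf1, a B-lineage factor, and carry Cas9 at Rosa26. Every group, the controls included, shared both alleles, and the lines were grown with SCF, Flt3L and IL-7. LP cells were kept on OP9 stroma, Phase 1 cells were on OP9-DLL4 stroma, which displays the Notch ligand DLL4, and Phase 2 was a later stage on OP9-DLL4. Antibodies to RUNX1, CTCF, Med12 and p300 were used in LP and Phase 1, and antibodies to the released intracellular domain of Notch1 (Notch1-IC) at all 3 stages. In 6 further groups a retrovirus brought in guide RNAs: RUNX1 was mapped in LP with a control guide (sgCont) or sgCTCF, Med12 in Phase 1 with sgCont or sgCbfb, and RUNX1 in Phase 1 with sgCont or sgMed12. Cbfb encodes the partner subunit of RUNX proteins. The 38 samples made up 19 groups of 2 replicates, and 17 groups had a peak list that combined both replicates. The remaining 2 groups were inputs. As there was 1 list per group, no spread between replicates could be given and no test between conditions was possible, so all comparisons below are counts, scores and ranks. The lines stand for 1 cell system, no primary progenitor was mapped in these lists, and how far each guide had lowered its protein was not measured in these lists. The paper shows immunoblots of Cbfb, CTCF and Med12 in Cas9-LP cells given the guides.

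Notch receptors are cut upon ligand binding, and the released intracellular domain enters the nucleus, where it binds the DNA-binding protein RBPJ and recruits Mastermind coactivators and p300. Hes1, Hes5, Hey1 and Heyl encode basic helix-loop-helix repressors that carry much of the response, Dtx1 encodes an E3 ubiquitin ligase of the Deltex family that acts on Notch, and Nrarp encodes an ankyrin-repeat protein that restrains the Notch transcription complex. In the thymus, this pathway starts the T-cell programme in incoming progenitors and blocks the B-cell fate.

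Notch1-IC was found at 3 of the 6 genes in Phase 1, at 2 in Phase 2 and at none in LP. Of all protein-coding genes, 1.61% had a Phase 1 Notch1-IC peak in the same kind of window, 2.68% had a Phase 2 peak and 11.9% had an LP peak. The Phase 1 list was short, with 152 peaks, against 352 in Phase 2 and 1585 in LP. Hes1 and Dtx1 each held 2 Phase 1 peaks, a count of 2 or more being reached by 0.123% of protein-coding genes. They also held 2 Phase 2 peaks each, where the corresponding share of genes was 0.369%. Nrarp held 1 Phase 1 peak and no Phase 2 peak. Hes5, Hey1 and Heyl had no Notch1-IC peak in their windows at any of the 3 stages.

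The 5 Phase 1 Notch1-IC peaks are shown here as sequence because the results at Hes1, Dtx1 and Nrarp turn on them. Every peak was 241 bases long and was read from GRCm38.p6, the assembly behind mm10, along the strand of its gene. Capitals mark GTGGGAA, used here as the RBPJ string, or its shorter form TGGGAA, on either strand. At Hes1 (chr16:30064384-30067796, plus strand), the upstream peak lay at chr16:30063997-30064237, between genes, with its centre 0.267 kb before the GENCODE start. The second Hes1 peak, at chr16:30065141-30065381, had its centre 0.877 kb after the GENCODE start, in an intron of a longer transcript, and 96 bases before the RefSeq start at position 30065357, which the peak covered. At Dtx1 (chr5:120680202-120711927, minus strand), both peaks were in intron 3 of 9, at chr5:120688512-120688752 and chr5:120685737-120685977, with centres 23.3 kb and 26.1 kb after the start. The Nrarp peak (gene at chr2:25180758-25183339, plus strand) was at chr2:25172699-25172939, between genes, 7.94 kb before the start.
Hes1 upstream site: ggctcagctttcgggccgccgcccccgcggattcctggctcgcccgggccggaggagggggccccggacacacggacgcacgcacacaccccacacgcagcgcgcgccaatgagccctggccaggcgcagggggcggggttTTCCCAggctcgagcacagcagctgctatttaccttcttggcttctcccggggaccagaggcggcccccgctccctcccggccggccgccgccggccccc
Hes1 start site: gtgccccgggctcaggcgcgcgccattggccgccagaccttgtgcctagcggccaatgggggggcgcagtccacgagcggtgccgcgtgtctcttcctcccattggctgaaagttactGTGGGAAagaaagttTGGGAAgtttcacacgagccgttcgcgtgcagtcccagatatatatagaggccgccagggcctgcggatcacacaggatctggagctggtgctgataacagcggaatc
Dtx1 proximal intronic site: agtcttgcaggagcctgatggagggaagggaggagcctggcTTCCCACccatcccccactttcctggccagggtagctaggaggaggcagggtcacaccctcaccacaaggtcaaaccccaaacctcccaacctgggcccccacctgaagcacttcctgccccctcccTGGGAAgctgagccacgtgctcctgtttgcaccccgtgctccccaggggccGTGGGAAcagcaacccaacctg
Dtx1 distal intronic site: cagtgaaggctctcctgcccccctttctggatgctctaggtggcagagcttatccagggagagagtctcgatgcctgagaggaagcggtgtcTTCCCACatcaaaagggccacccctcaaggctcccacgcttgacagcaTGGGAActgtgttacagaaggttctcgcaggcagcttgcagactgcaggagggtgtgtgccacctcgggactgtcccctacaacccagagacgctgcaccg
Nrarp upstream site: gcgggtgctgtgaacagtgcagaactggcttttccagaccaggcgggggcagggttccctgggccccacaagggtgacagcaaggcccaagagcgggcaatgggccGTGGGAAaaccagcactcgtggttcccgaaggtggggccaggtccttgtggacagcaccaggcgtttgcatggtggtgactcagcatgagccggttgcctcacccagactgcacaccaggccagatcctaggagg

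The shorter form was within 100 bp of the centre in all 5 peaks, against 55.3% of the Phase 1 list and 14.1% of its flanks. The full RBPJ string lay within 100 bp of the peak centre in 4 of the 5 peaks, the Hes1 upstream site being without it. Across the whole Phase 1 list the string was present in 36.2% of 152 peaks, and in 4.28% of the flanks taken 2 kb to each side. The Hes1 start site had the string at positions 119 to 125, counted from the first printed base, which put its middle 1 bp from the peak centre. The shorter form followed 8 bases later on the same strand. In the Nrarp site, the string at positions 107 to 113 was 11 bp from the centre and was the sole match. In the Dtx1 distal site the string was on the strand opposite to the gene, at positions 93 to 99, and the shorter form lay 41 bases further on the other strand. The Dtx1 proximal site had the string at positions 42 to 48 and again at positions 220 to 226, in opposite orientation, with the shorter form between them. In the Hes1 upstream site, where 75.5% of bases were G or C, the shorter form alone was found, at positions 142 to 147. The 3 sites with more than 1 match thus differed in the arrangement of these exact matches. At the Hes1 start 8 bases lay between matches on the same strand. At the Dtx1 distal site 41 lay between matches on opposite strands, and at the Dtx1 proximal site 120 and 45 between successive matches. Only these exact letters were searched. RBPJ sites with other letters would be missed, so the spacings do not describe the full arrangement of RBPJ sites at any peak. In the plot of string positions these matches are drawn along each gene.

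**Figure D1:**
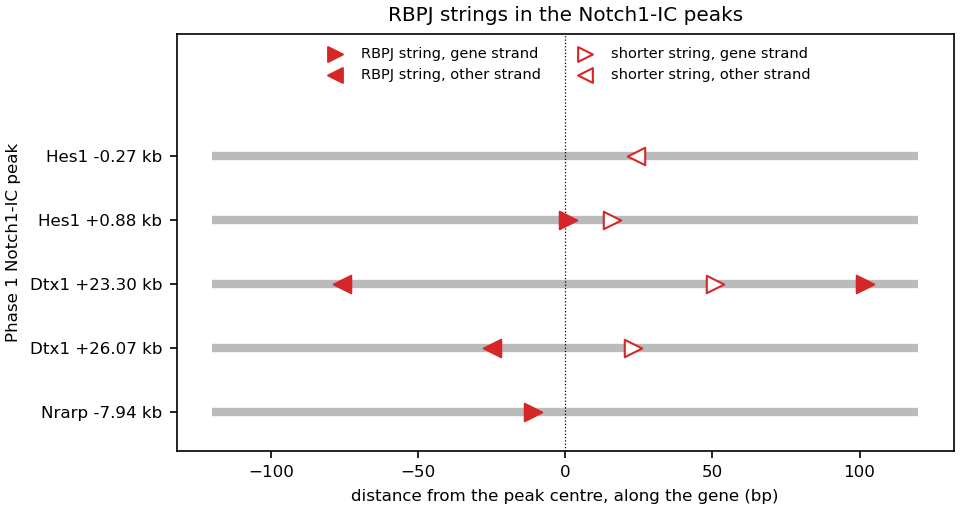
Positions of RBPJ strings in the 5 Phase 1 Notch1-IC peaks, in bp from the peak centre along the gene (x axis), with 1 peak per line. Filled arrowheads are the 7-letter string and open ones the shorter form without the 7-letter match, and the arrowhead gives the strand. The match at the Hes1 start lies 1 bp from the centre, and the Hes1 upstream site has the shorter form only.

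For Phase 2 the string was within 100 bp of the centre in 3 of 4 member peaks, against 26.5% of 343 peaks on named chromosomes. For the LP list it was in 4.42% of peaks, next to 4.26% of its flanks, and no member peak was in that list. RUNX recognition letters were looked for after the peaks had been seen, as TGTGGTT or TGCGGTT on either strand. They were in 0 of the 5 Phase 1 member peaks, against 25.7% of all Phase 1 Notch1-IC peaks. Only these exact strings were searched, so shorter or variant RUNX letters would be missed. The absence of these letters from the printed windows says nothing about RUNX1 itself, whose peaks overlapped all 5.

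Notch1-IC scores placed Hes1 and Dtx1 high in the Phase 1 list. The score is the peak score given by HOMER, whose scale is not stated, so values were read within 1 list only, with ranks counted from the highest score. The Hes1 start site scored 61.4 and ranked 12 of 152, and the Dtx1 distal site scored 56.1 and ranked 14. The Hes1 upstream site scored 22.9 (rank 50), the Dtx1 proximal site 19.6 (rank 67) and the Nrarp site 17.1 (rank 101), close to the lowest score of 15 in that list. In Phase 2 the scores were 47.2 (rank 49 of 352) at the Hes1 start, 44.1 (rank 54) at the Dtx1 distal site, 41.9 (rank 61) at the Dtx1 proximal site and 27.8 (rank 105) at the Hes1 upstream site. The 2 highest-scored of these sites were thus the same at both stages, and both Dtx1 sites ranked alike in Phase 2. Of the 5 Phase 1 peaks, 4 overlapped a Phase 2 peak, the Nrarp site being without one, against 56.6% of the Phase 1 list.

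In LP, the nearest Notch1-IC peaks lay beyond the limit of the windows. The closest was 50.3 kb past the end of Nrarp, nearer to the start of Slc34a3, with a score of 28.3 and rank 387 of 1585. The next was 58.9 kb past the end of Dtx1, near Ddx54, at a score of 15.4. Those nearest to Hes1, Hes5, Heyl and Hey1 were 114 kb, 200 kb, 310 kb and 315 kb away from the gene. For the genes that had no Phase 1 Notch1-IC peak, the nearest one was 1240.8 kb from Hes5, 10423.5 kb from Heyl and 70297.3 kb from Hey1.

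Hes5 is shown as sequence because its promoter carried the letters without a Notch1-IC peak. RefSeq promoter sequence (250 bases before to 50 after the start, GRCm38.p6) was held for 3 of the 6 genes, Hes5, Dtx1 and Nrarp, while Hes1, Hey1 and Heyl had no entry. The Hes5 promoter (chr4:154960673-154960972, plus strand) contained GTGGGAA 2 times in opposite orientation.
Hes5 promoter: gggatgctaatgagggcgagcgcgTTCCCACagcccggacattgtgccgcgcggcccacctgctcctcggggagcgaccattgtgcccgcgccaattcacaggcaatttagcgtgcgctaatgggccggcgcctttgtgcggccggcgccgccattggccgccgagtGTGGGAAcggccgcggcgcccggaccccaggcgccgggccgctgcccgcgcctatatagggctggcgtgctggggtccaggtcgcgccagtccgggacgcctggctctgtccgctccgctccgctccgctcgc

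The first match in the Hes5 promoter lay 226 to 220 bases before the start on the opposite strand, and the second 83 to 77 bases before the start on the gene strand. Of 32851 RefSeq promoters, 6.38% had the string at least once and 0.256% had it 2 or more times. The promoters of Dtx1 and Nrarp had neither the string nor its shorter form. No list had a peak over the printed Hes5 promoter stretch. The closest were CTCF peaks with centres 0.531 kb after the start in LP (score 69.8) and 0.536 kb in Phase 1 (score 62.0), and a weak Phase 1 Med12 peak 1.22 kb after the start (score 19.8).

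All 5 Phase 1 Notch1-IC sites were also occupied by RUNX1, Med12 and p300 in Phase 1. In the whole Phase 1 Notch1-IC list, 85.5% of peaks overlapped Phase 1 RUNX1, 86.2% Med12 and 86.8% p300, so 5 of 5 was near the background. The sites differed from the list in LP. LP RUNX1, LP Med12 and LP p300 were each at 1 of the 5 sites, against 73.0%, 71.1% and 73.7% of the list, and that site was the Hes1 upstream site in all 3 cases. The other 4 sites had no LP peak of RUNX1, CTCF, Med12, p300 or Notch1-IC, a state shared by 17.1% of the list (26 of 152). Stated from the other side, Phase 1-specific RUNX1 peaks (those with no overlap in LP) were at 4 of 5 member sites and at 13.2% of the list, and the corresponding list shares were 15.8% for Med12 and 13.8% for p300. No test was made of these differences.

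The scores of these Phase 1 peaks were high within their lists. At the Dtx1 distal site, Med12 scored 241.0, which ranked 540 of 39132 (1.38% from the top), RUNX1 scored 137.9 (12.7%) and p300 216.7 (6.38%). At the Dtx1 proximal site Med12 scored 109.4 (12.5%), RUNX1 127.6 (14.5%) and p300 141.3 (13.5%). The Nrarp site held Med12 at 182.1 (3.41%), RUNX1 at 115.8 (16.9%) and p300 at 280.1 (3.73%). None of these 3 sites had an LP peak of these coactivators or of RUNX1. The Hes1 start site had Med12 at 178.2 (3.65%), RUNX1 at 136.8 (12.8%) and p300 at 170.2 (9.93%). At the Hes1 upstream site, where LP peaks were present too, Med12 scored 65.0 in LP (38.5% from the top of that list) and 185.2 in Phase 1 (3.24%). RUNX1 scored 106.2 (19.8%) in LP and 222.1 (4.47%) in Phase 1, and p300 132.2 (19.4%) and 297.8 (3.23%). The lists of the stages differ in length, as RUNX1 had 31995 peaks in LP and 38399 in Phase 1, Med12 30020 and 39132, and p300 36182 and 49116. Scores and ranks of LP and Phase 1 are therefore set side by side here and below, and were not read as a change.

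**Figure D2:**
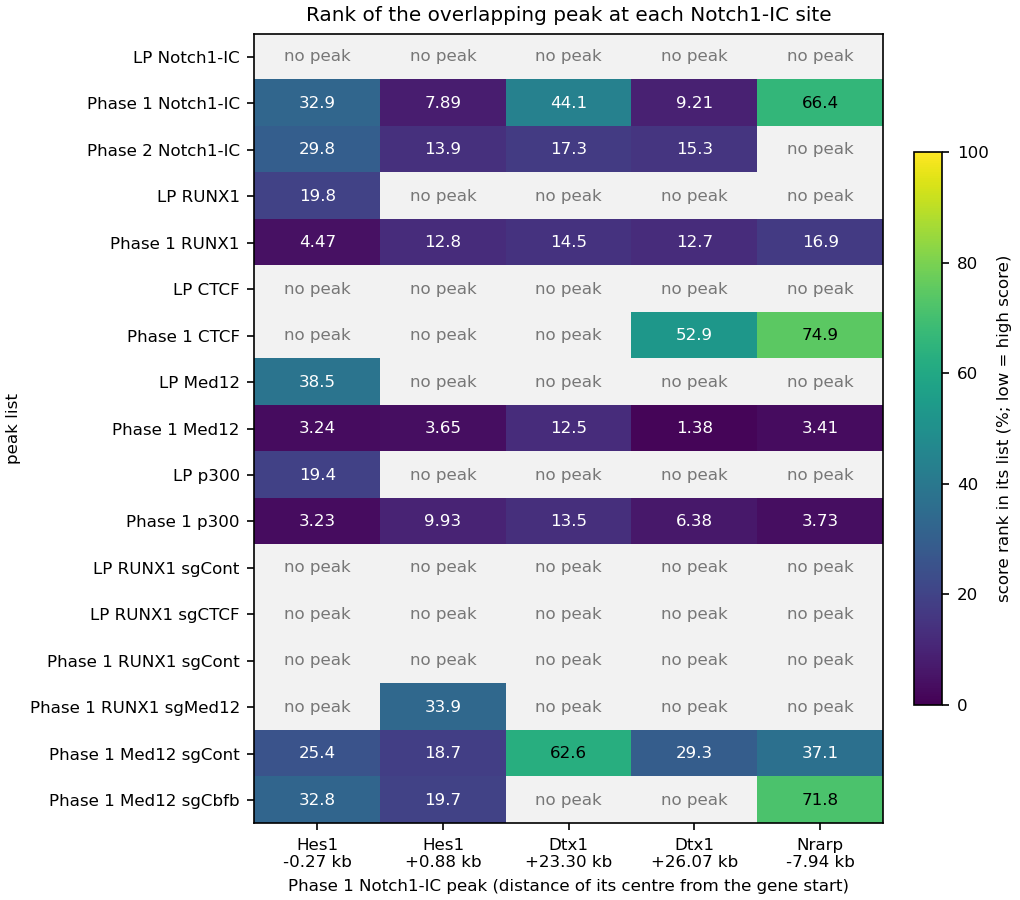
Score rank, in percent of each list with low values for high scores, of the peak that overlaps each Phase 1 Notch1-IC site (columns, with the distance of the centre from the gene start) in each of 17 lists (rows), 'no peak' marking sites without one. Med12 ranks of 1.38 to 12.5% stand in the Phase 1 row, while the LP rows are filled at the Hes1 upstream site alone.

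CTCF, an insulator-binding protein, was at 2 of the 5 sites in Phase 1, against 21.1% of the list, and at none in LP, against 14.5%. Its peaks were at the Dtx1 distal site (score 62.7, 52.9% from the top) and the Nrarp site (score 32.7, 74.9%). Both were absent from the LP list, and they were the only Phase 1-specific CTCF peaks in the 6 windows, such peaks being at 9.87% of the Notch1-IC list. Their centres were 97 and 87 bp away from those of Notch1-IC, whereas the RUNX1, Med12 and p300 centres at the Dtx1 and Nrarp sites were within 20 bp of it.

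Phase 1-specific peaks of RUNX1 and Med12 at a Notch1-IC site scored above those elsewhere in the same windows, and those of p300 did so with 1 exception. For RUNX1 the 4 at Notch1-IC sites scored 115.8 to 137.9 and the other 10 scored 17 to 65.5, without overlap. For Med12 the ranges were 109.4 to 241.0 (n = 4) and 15.3 to 61.4 (n = 10), again without overlap. For p300 the 4 scored 141.3 to 280.1 and the other 14 scored 17.4 to 307.9, the highest being a peak by Tubb4b, 43.6 kb after the Nrarp start. The same order was present over the whole lists, where Phase 1-specific RUNX1 peaks had a median score of 113 at Notch1-IC sites (n = 20) and 23.2 elsewhere (n = 11769), so it was not particular to these genes.

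Med12 calls in cells with guide RNAs against Cbfb varied among the 3 genes. With sgCont, Med12 was called at all 5 Notch1-IC sites, against 80.3% of the list, and with sgCbfb at 3 of them, against 53.3%. In the whole list, 65.6% of the Phase 1 Notch1-IC peaks with Med12 in sgCont had it in sgCbfb too. At the Hes1 start the scores were 68.8 with sgCont (rank 18.7%) and 71.9 with sgCbfb (19.7%), and at the Hes1 upstream site 58.1 (25.4%) and 52.3 (32.8%). Med12 was thus called at both Hes1 sites with either guide. The paper reports from signal tracks that Med12 at its Hes1 Notch1-IC site was weakened when Cbfb was disrupted. Peak calls, and scores read within 1 list, do not measure such a change. At the Nrarp site the score was 45.1 (37.1%) with sgCont and 24.3 (71.8%) with sgCbfb. At the Dtx1 sites it was 53.1 (29.3%, distal) and 28.7 (62.6%, proximal) with sgCont, and no sgCbfb peak was present at either, the nearest being 5.50 kb from the distal site.

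Over the 6 windows, 12 of 20 Med12 peaks found with sgCont were also found with sgCbfb, 60.0% (95% Wilson interval 38.7 to 78.1%), against 67.8% of the 19053 peaks of the list. In the other direction 12 of 19 were shared, 63.2% (41.0 to 80.9%), against 71.4%. Both intervals include the value of the list. The 8 peaks without a match were confined to the windows of Dtx1, where 5 of 6 were missing, and Nrarp, where 3 of 8 were missing. At Hes1 3 of 3 were kept, and at Hes5, Hey1 and Heyl 1 of 1 each. Peaks found with sgCbfb alone numbered 7, of which 1 to 2 were at each gene. The peaks of the Dtx1 window missing with sgCbfb comprised the one at the gene start (score 21.6, rank 78.2%) and both intronic Notch1-IC sites. The others lay past the gene end, 34.2 kb (58.0) and 68.1 kb (31.8) after the start, with Rasal1 as the nearest start. The paper states that ChIP on cells lacking Cbfb used as few cells as possible and was noisier than usual. A Med12 peak missing with sgCbfb was therefore not read as lost binding. The Wilson intervals treat peaks as independent and cover counting error only.

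RUNX1 lists made with guides were short, with 874 to 2094 peaks, and had few peaks in the windows. In Phase 1, sgMed12 cells had RUNX1 at the Hes1 start site (score 24.0, 33.9% from the top), where the sgCont list had none. This made 1 of the 5 Notch1-IC sites with sgMed12, against 33.6% of the Phase 1 Notch1-IC list, and 0 of 5 with sgCont, against 30.3%. They also had it 68.1 kb after the Dtx1 start (23.0) and 44.2 kb after the Nrarp start, by Tubb4b (18.8). The last was the 1 member peak of the Phase 1 sgCont list, at 25.7, and thus 1 of 1 was kept with sgMed12, against 71.0% of that list, while 1 of the 3 sgMed12 peaks was in sgCont, against 52.6%. In LP, the sgCont list had 1 peak, 68.1 kb after the Dtx1 start (22.9), and the sgCTCF list had 0, where 59.1% of the sgCont list was kept. A peak missing from lists this short was not read as lost binding.

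**Figure D3:**
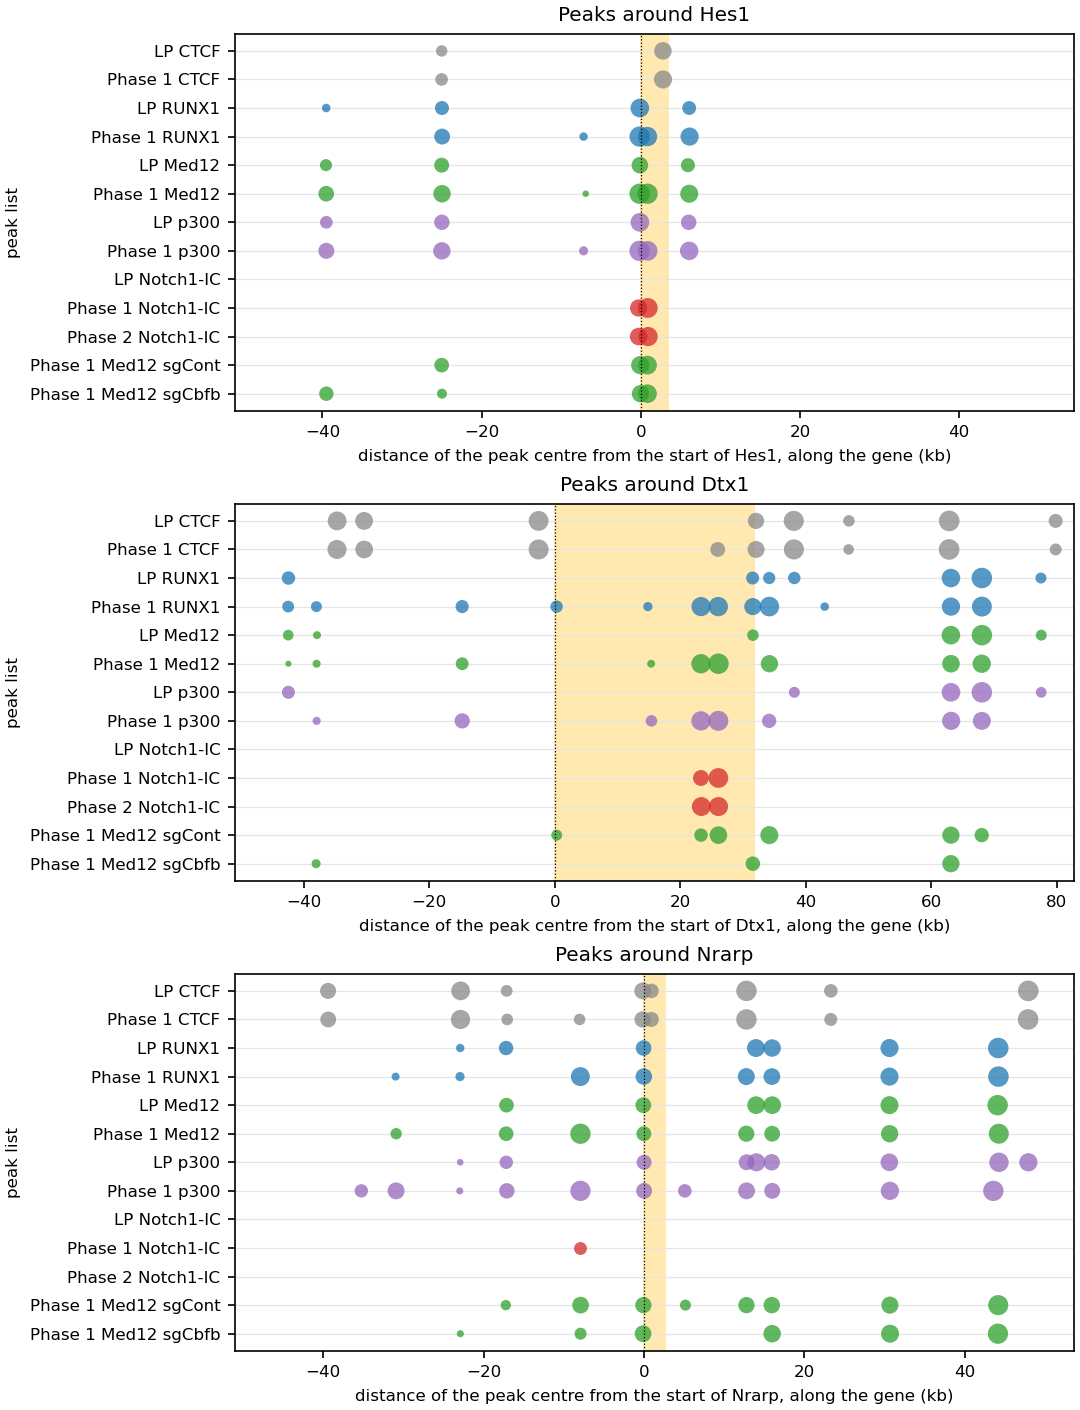
Peaks around Hes1, Dtx1 and Nrarp, as the distance of the peak centre from the gene start along the gene in kb (x axis), 1 line per list. Larger points rank higher in their list and the shaded band is the gene body. Notch1-IC points, in red, sit by the Hes1 start, 23.3 and 26.1 kb into Dtx1 and 7.94 kb before Nrarp, with no LP Notch1-IC point in any panel.

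Dtx1 had the largest difference between LP and Phase 1 in the number of RUNX1 peaks called. They numbered 7 in LP and 12 in Phase 1, the latter count or more being reached by 5.13% of protein-coding genes. The RUNX1 lists differ in length (31995 and 38399 peaks), so this was not read as a change. The Dtx1 window is shared with 4 other protein-coding genes. The Dtx1 start was the nearest protein-coding start for 24 of its 79 peaks. Of the 12 Phase 1 RUNX1 peaks, 7 were Phase 1-specific, and so were 5 of 9 Med12 peaks and 6 of 8 p300 peaks. Over the whole Phase 1 lists, 30.7% of RUNX1, 38.2% of Med12 and 41.6% of p300 peaks were Phase 1-specific. No test of these counts was made. In LP no p300 peak was called within the gene, and the single RUNX1 and Med12 peaks there were at its far end, 31.5 kb (32.7) and 31.6 kb (27.5) after the start. At that end RUNX1 was called in Phase 1 too (67.8), and Med12 in Phase 1 cells with sgCbfb (33.3) but not with sgCont. The LP Med12 peak there was absent from the Phase 1 list without guides and was the highest-scored LP-specific one at Dtx1. The highest LP-specific RUNX1 and p300 peaks were 38.2 kb after the start (30.0) and 42.5 kb before it (35.7). Phase 1 peaks were found 14.8 kb before the start (RUNX1 31.1, Med12 28.1, p300 45.6) and at the start itself (RUNX1 27.8). Another cluster lay 14.8 to 15.4 kb after the start (19.3, 17 and 25.2), followed by the intronic Notch1-IC sites. CTCF was in place shortly before the gene at both stages, its peak centres being 2.59 kb before the start in LP (score 222.5) and 2.58 kb in Phase 1 (262.7).

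Nrarp was occupied at its start at both stages. Scores in LP and Phase 1 were 51.9 and 58.6 for RUNX1, 54.7 and 38.5 for Med12, 52.3 and 52.0 for p300, and 100.4 and 90.4 for CTCF. A second CTCF peak followed 0.935 kb after the start in LP (55.8) and 0.911 kb in Phase 1 (66.9). None of these peaks was stage-specific. With guides, Med12 scored 41.6 (sgCont) and 47.3 (sgCbfb) at the Nrarp start. Beyond the Notch1-IC site, the highest-scored Phase 1-specific RUNX1 peak was 12.8 kb after the start (65.5), with Med12 (48.2). At that place p300 (64.2 in LP, 65.4 in Phase 1) and CTCF (295.7 and 393.7) were called at both stages. The highest LP-specific peaks of RUNX1 (87.2) and Med12 (83.9) were close to that RUNX1 peak, 14.0 kb after the start, in an exon of Tor4a. The highest LP-specific p300 peak was by Tubb4b, 44.3 kb after the start (174.8). A Phase 1 p300 peak lay close by, 43.6 kb after the start (307.9), so p300 was called near Tubb4b at both stages and these peaks count as stage-specific because they do not overlap. A Phase 1-specific cluster was 30.9 to 31.0 kb before the start, with p300 at 66.4, Med12 at 23.5 and RUNX1 at 17.2. The window of Nrarp is shared with 6 other protein-coding genes, and 42 of its 83 peaks had the Nrarp start as the nearest protein-coding start.

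Hes1 had no other protein-coding gene in its window, and its start was the nearest for all 45 peaks. Outside the start region, RUNX1, Med12 and p300 were found at both stages 25 kb before the start, at a non-coding transcript, and 6.09 kb after it in LP (RUNX1 37.6) and 6.14 kb in Phase 1 (90.9). CTCF peaks were shared between stages, with 120.7 in LP and 147.5 in Phase 1 in an exon. The paper, in contrast, describes no CTCF peak inside the Hes1 gene body. It places its Hes1 CTCF sites far downstream, outside the window used here. LP-specific peaks at Hes1 numbered 1, a weak RUNX1 peak 39.5 kb before the start (18.8). At that place Med12 (29.5 in LP, 43.7 in Phase 1) and p300 (33.7 and 53.8) were called at both stages. Med12 was called there with sgCbfb as well (32.5). A weak Phase 1-specific group lay 7.19 kb before the start for RUNX1 (17.8) and 7.18 kb for p300 (19.2).

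Hey1 had the plainest pattern, 1 peak for each of RUNX1, CTCF, Med12 and p300 at each stage, and no stage-specific peak. In these 8 lists, 74.9 to 86.6% of protein-coding genes had 1 or more peaks. At its promoter RUNX1 scored 30.2 in LP and 75.5 in Phase 1, Med12 29.9 and 52.6, and p300 25.4 and 63.3. Their ranks were 69.1%, 70.7% and 78.4% from the top of the LP lists and 30.0%, 38.2% and 37.1% from the top of the Phase 1 lists. Med12 was called there with sgCont (23.0) and sgCbfb (15.8). CTCF, 2.57 kb after the start in an exon, scored 153.0 in LP and 146.6 in Phase 1.

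Heyl and Hes5 had little at their starts. No list had a peak within 1 kb of the Heyl start. In the gene, Phase 1-specific Med12 (17.6), p300 (28.5) and RUNX1 (17) peaks were found together in an intron, 2.89 to 2.96 kb after the start, and p300 again at 4.38 kb (21.1). The highest-scored Phase 1-specific RUNX1 peak of the Heyl window was 26.7 kb after the start (37.5), where Med12 and p300 were called at both stages, and that of p300 was 50.3 kb after the start, in an intron of Pabpc4 (29.9). CTCF had 18 of the 39 peaks in the Heyl window, 9 at each stage and none stage-specific. At Hes5, 3 of 44 peaks were nearest to its own start. The LP-specific RUNX1 peak there lay 16.4 kb before the start (23.6), with LP-specific Med12 (21.2) and p300 (24.2) beside a CTCF peak that was present at both stages (373.2 in LP, 369.5 in Phase 1). The LP-specific CTCF peak was 25 kb before the start (17.9). No Phase 1-specific RUNX1 peak was in the Hes5 window, and the Phase 1-specific p300 peak was 49.6 kb before the start (24.2).

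**Figure D4:**
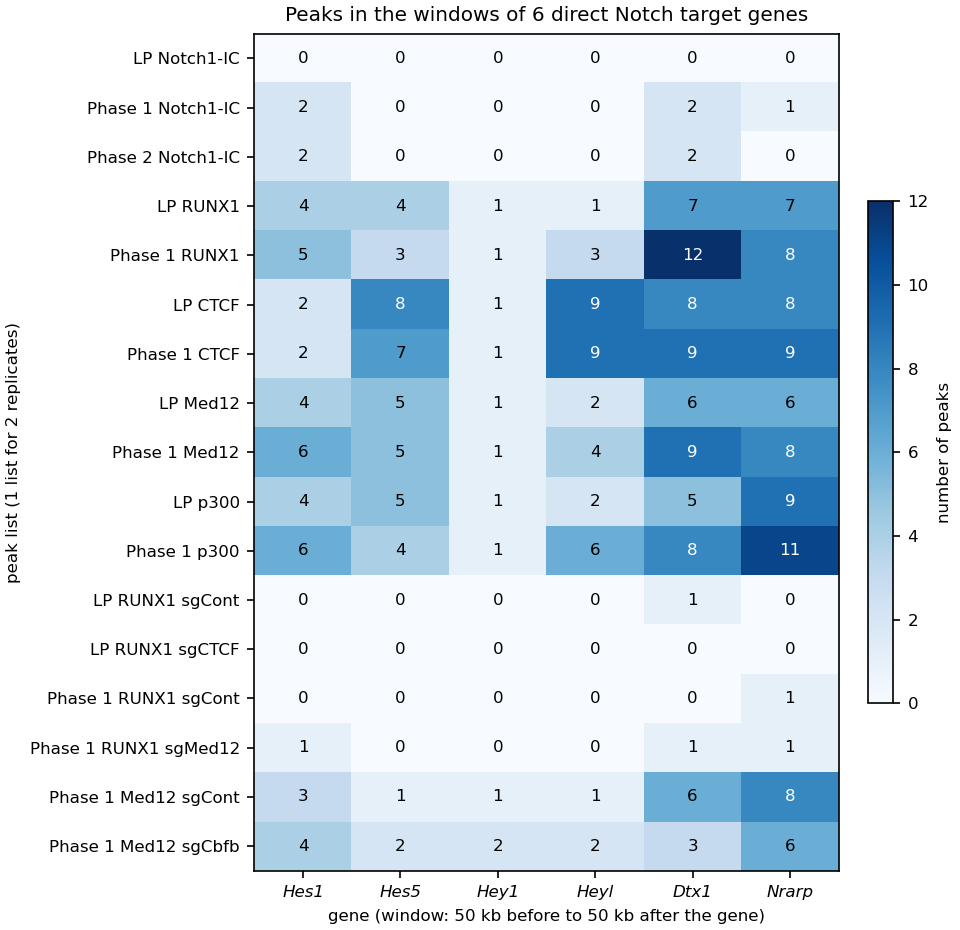
Number of peaks of each list (rows) in the window of each gene (columns), darker cells for higher counts. The Notch1-IC rows are filled at Hes1, Dtx1 and Nrarp in Phase 1 and at Hes1 and Dtx1 in Phase 2, and the highest count is 12, for Phase 1 RUNX1 at Dtx1.

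Over all 6 windows, stage-specific shares of RUNX1, Med12 and p300 were above those of the lists and CTCF shares below. No interval excluded the share of its list. Among RUNX1 peaks, 14 of 32 were Phase 1-specific, 43.8% (95% Wilson interval 28.2 to 60.7%), against 30.7% of the list, and 6 of 24 were LP-specific, 25% (12 to 44.9%), against 16.8%. For Med12 the shares were 42.4% in Phase 1 (27.2 to 59.2%, list 38.2%) and 20.8% in LP (9.24 to 40.5%, list 19.5%). For p300 the shares were 50.0% in Phase 1 (34.5 to 65.5%, list 41.6%) and 30.8% in LP (16.5 to 50.0%, list 20.7%). With the same number of top-scored peaks from each stage, both Med12 shares were 33.3%. The RUNX1 shares were then 34.6% in Phase 1 and 29.2% in LP, and the p300 shares 42.9% and 38.5%. CTCF had the lowest shares, with 2 of 37 peaks specific to Phase 1, 5.41% (1.5 to 17.7%, list 8.35%), and 1 of 36 to LP, 2.78% (0.492 to 14.2%, list 9.55%). All 8 intervals included the value of the whole list, but they were wide, coming from 24 to 37 peaks each.

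**Figure D5:**
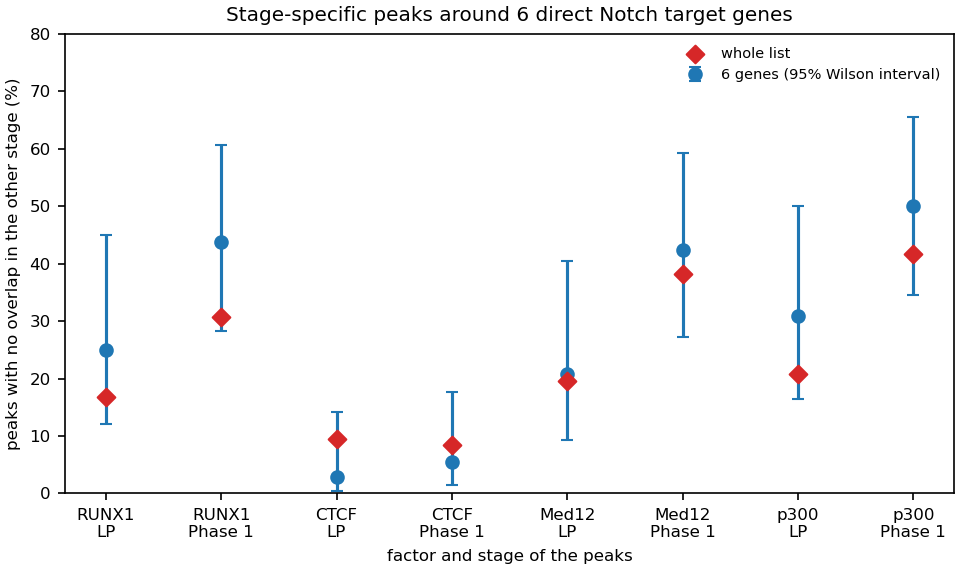
Share of peaks in the windows of the 6 genes with no overlap in the other stage, in percent (y axis), by factor and stage, as circles with 95% Wilson intervals, and the share in the whole list as diamonds. Every diamond lies inside its interval, and the highest share of the genes is 50.0%, for Phase 1 p300.

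The windows also hold peaks that belong by position to neighbours, 168 of the 301, and the shares were therefore also taken by nearest start. This split was chosen after the data had been seen. Among peaks whose nearest protein-coding start was that of a member, 10 of 16 Phase 1 RUNX1 peaks were Phase 1-specific, 62.5% (38.6 to 81.5%), and 4 of 16 of those nearest another gene, 25% (10.2 to 49.5%). For Med12 the corresponding counts were 10 of 17 and 4 of 16, and for p300 12 of 20 and 6 of 16. In LP, 0 of 7 Med12 peaks and 0 of 8 p300 peaks nearest a member were LP-specific, against 5 of 17 and 8 of 18 of those nearest another gene. LP-specific RUNX1 peaks were 2 of 9 and 4 of 15. Over the whole lists, Phase 1-specific shares were 30.7% for RUNX1, 38.2% for Med12 and 41.6% for p300. The LP-specific shares were 16.8%, 19.5% and 20.7%. The interval of 38.6 to 81.5% for RUNX1 lay above its list share, but belongs to a split chosen after seeing the data. Of those 10 RUNX1 peaks, 4 were at the Notch1-IC sites described above. No test of these splits was made.

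Overlap of RUNX1 with the coactivators was counted next. Of Phase 1 RUNX1 peaks, 25 of 32 overlapped both Med12 and p300 of that stage, 78.1%, against 81.1% of the list, and in LP 19 of 24, 79.2%, against 82.1%. Overlap with CTCF was found for 8 of 32 in Phase 1, 25%, against 15.7%, and 8 of 24 in LP, 33.3%, against 23.2%. No test of these differences was made.

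Other genes of the Notch pathway, 38 in all, were counted in the same way. Phase 1 Notch1-IC was found at 4 of 38, 10.5%, and Phase 2 Notch1-IC at 4 of 38, while LP Notch1-IC was found at 7 of 38, 18.4%. The background shares of protein-coding genes were those given above for the 6 genes. By role, the Phase 1 peaks were at 3 of the 5 receptor and DNA-binding genes (Notch1, Notch3 and Rbpj) and at 1 of the 6 Hes and Hey paralogs (Hey2). None of the 5 ligands, the 3 Mastermind genes, the 7 processing genes, the 8 modifiers and inhibitors or the 4 Deltex paralogs had one. The Hey2 peak was 0.097 kb before its start, with a score of 15.3 (rank 142 of 152). Notch3 scored 28.4 in Phase 1 (rank 26) and 81.5 in Phase 2 (rank 24 of 352), in intron 1. Notch1, unlike the 6 target genes, had a peak 3.12 to 3.14 kb after its GENCODE start at all 3 stages, with scores of 114.5 in LP (rank 5 of 1585), 27.4 in Phase 1 (rank 29) and 118.8 in Phase 2 (rank 13).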

How the data were processed

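ChIP-seq peak lists for 17 groups of 2 replicates were used, and the 4 input samples had no list. The authors aligned reads to mm10 with Bowtie 1.1.1, called peaks with HOMER in factor mode against a matched control, kept those reproducible between replicates by the irreproducible discovery rate, and required a normalized peak score of at least 15. The deposited unit is that score, with no read counts, so depth could not be measured from the lists. The members and lists of genes were chosen with earlier results of these data known. Gene bodies came from GENCODE M21 and sequences from GRCm38.p6, whose chromosome lengths contained all peaks. Peaks were assigned by centre within 50 kb of a gene, and overlap meant 1 bp or more. Shares carry 95% Wilson intervals. Named were all Notch1-IC peaks in a window and, of the other lists, peaks overlapping them, peaks within 1 kb of a start and the highest-scored stage-specific peak of each factor and gene, with guide-list peaks at the same places. Further peaks nearby were named after their values had been seen. Python 3.11.15, numpy 2.4.6, pandas 2.3.3 and pysam 0.24.0 were used, and the overlap and string searches were tested on simulated data.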

Additional observations from a re-analysis of the deposited data

How the results depend on the processing

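No paired analysis was possible because each list combined both replicates and no test was made, and leaving out a replicate could not be done for the same reason. Of 118 alternative values, 95 stayed within 1.5 times the count reported or inside the interval of the share. With a minimum score of 30, 2 Phase 1 Notch1-IC peaks remained (the Hes1 start and Dtx1 distal sites). Both had RUNX1, Med12, p300 and the RBPJ string (2 of 2 each), 1 had CTCF and 0 had an LP peak. The LP-specific Med12 share was then 7.69%, the share of sgCbfb Med12 peaks also in sgCont 81.8%, and Notch1-IC was at 2 other pathway genes in LP, 0 in Phase 1 and 2 in Phase 2. With 25 kb windows, 0 of 1 sgMed12 RUNX1 peak was in sgCont (0.0%), and LP Notch1-IC was at 3 pathway genes. With 100 kb windows, 3 LP Notch1-IC peaks at 2 members appeared and the Phase 1-specific p300 share was 33.3%. Peaks nearest a member's start, a choice made after seeing the data, gave 62.5% for Phase 1-specific RUNX1 and 0.0% for LP-specific CTCF, Med12 and p300. The causes were not tested. With equal list lengths the stage-specific Med12 share was 33.3% in both LP and Phase 1 (20.8% and 42.4% as reported), so the difference between the stages was not kept, and without promoter peaks it was 33.3% in LP and p300 44.4%. These values stayed inside the reported intervals, as did all others with these settings. A longer overlap (50% of the shorter peak), the shorter string and a 50 bp search moved no value by these measures.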

Other observations

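The highest LP scores of RUNX1, Med12 and p300 in the 6 windows were at neighbours of the target genes. In the region 68.1 kb after the Dtx1 start, with Rasal1 as the nearest start, RUNX1 scored 320.2 in LP (1.13% from the top of its list), Med12 299.7 (1.54%) and p300 485.3 (1.15%). In Phase 1 the scores were 179.6 (7.51%), 78.6 (22.6%) and 88.4 (25.9%). The lists of the stages differ in length, so these ranks were not read as a change. Med12 was called with sgCont (31.8) but not with sgCbfb. At Tubb4b, a tubulin gene 44.2 kb after the Nrarp start, RUNX1 scored 316.8 in LP (1.18%) and 337.7 in Phase 1 (1.27%), and Med12 was called with sgCont (115.6) and sgCbfb (132.5).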
